A study of Arabidopsis thaliana with 4 samples.

Results

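The WRKY genes of Arabidopsis thaliana were described by the H3K4me3 peaks that overlap them in roots with and without osmotic stress. A gene was counted as a member when its symbol or a synonym in the TAIR10.1 annotation of RefSeq is WRKY followed by a number, which gave 71 of the 33056 nuclear genes. H3K4me3, the trimethylation of lysine 4 of histone H3, was measured by CUT&Tag, in which an antibody brings a transposase to the mark so that the DNA around it is cut out and sequenced. All 4 libraries came from roots of Col-0 plants grown for 10 days. The labels give the treatment of the 2 control libraries as WT, and the 2 stress libraries came from plants under osmotic stress, for which the paper's protocol gives 250 mM sorbitol. The labels do not say whether replicates came from separate plants, so the p-values below measure the spread between libraries, which may be technical.

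WRKY proteins are plant transcription factors that carry 1 or 2 copies of a DNA-binding domain named after its conserved amino acids WRKY and closed by a zinc finger. They bind the W-box, a short DNA element with the core TTGAC, which also occurs in front of many WRKY genes, so that members regulate each other and themselves. The family is divided by the number of domains and the form of the zinc finger into subgroups I, IIa to IIe and III, and it is best known for immune responses to pathogens, with further members in senescence, phosphate uptake, root hairs, drought and heat. H3K4me3 marks the start of genes that are transcribed or have lately been transcribed, usually just downstream of the transcription start site (TSS).

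The headers of the peak tables give a depth of 9011630 (control replicate 1), 6396842 (control replicate 2), 15974955 (stress replicate 1) and 25714827 fragments (stress replicate 2). Both stress libraries were deeper than both control libraries, and depth and condition cannot be told apart. Nuclear peaks numbered 13695 and 12698 under control conditions and 14781 and 15783 under stress, with a median length of 830 and 772.5 bp against 967 and 1000 bp. Of 9 root marker genes, 5 held a peak in at least 1 library, while GL2, COBL9, SMB and WOX5 held none. The summed pileup of these root markers was 28.5 to 48.0 fragments per 1000000 in control and 39.2 to 43.7 in stress. A gene without a peak adds nothing to such a sum. The sum of 28.5 is of control replicate 2, the shallowest library, where 3 root markers had a peak, against 5 in each other library. Within that list SHR, a regulator of the root ground tissue, was lower under stress by limma (log2 change -0.86) and WER, which specifies non-hair epidermis, was higher (0.64). Of 7 markers of seeds and flowers, 5 held no peak in any library. CRU3 held a peak in every library, at 5.63 to 6.46 fragments per 1000000, and AG in control replicate 2 and stress replicate 2. The summed pileup of the 7 markers was 6.33 to 8.29 in control and 6.38 to 7.82 in stress. The part of such differences in the WRKY results was not tested. In these bulk root libraries a change in the number of cells with the mark and a change in the mark per cell cannot be told apart.

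A WRKY gene was said to have a peak in a library when a peak of that library overlapped the span from 1 kb before its TSS to its end. By this measure 41 and 37 WRKY genes had a peak in the control libraries and 47 and 53 in the stress libraries, or 39 ± 2.83 against 50 ± 4.24 (SD, n = 2). The difference of 11 genes gave p = 0.333 in a two-sided exact permutation test, which is the smallest p that 2 against 2 libraries can give. In control 57.7% and 52.1% of WRKY genes had a peak, and in stress 66.2% and 74.6%. The same shares over protein-coding genes were 59.5% and 55.8%, and 64.0% and 66.7%. When the pileup and background of each peak were scaled to 6396842 fragments, the depth of the shallowest library, and peaks that would then miss the calling cutoff were dropped, the numbers became 41, 37, 45 and 45.

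Across the libraries, 35 of the 71 WRKY genes (49.3%) had a peak in every library and 18 (25.4%) in none, against 54.3% and 32.1% of protein-coding genes. A gene was named stress-only when each stress library held a peak in its span and neither control library did, and control-only in the reverse case. There were 8 stress-only WRKY genes (11.3%), against a background of 4.47% of all nuclear genes. No WRKY gene was control-only, a pattern of 0.263% of all nuclear genes. At equal depth the stress-only count was 4 of 71 (5.63%), against 2.98% of protein-coding genes. There 1 gene, WRKY74, became control-only (1.41%, against 0.503% of protein-coding genes).

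The subgroups differed in how many of their genes had a peak in the span, which can also be a peak of a neighbour. In IIc the highest peaks of WRKY43, WRKY45 and WRKY50 had summits nearest to another gene's TSS in each library with a peak. The same held for WRKY46 and WRKY55 of III, WRKY26 of I and WRKY60 of IIa. In subgroup IId, the calmodulin-binding WRKY proteins, 6 of 7 genes had a peak in every library and none lacked a peak throughout, and the median level of those 6 was 19.0 fragments per 1000000, the highest among the subgroups. Subgroup IIb followed with 6 of 8 genes in every library and IIe with 5 of 7. In subgroup IIc, the largest with 18 genes, 9 genes had no peak in any library, among them WRKY75, which acts in phosphate starvation responses and root hair number, WRKY12, WRKY13 and WRKY71, and 4 had a peak in every library. Subgroup III held 4 of the 8 stress-only genes, WRKY46, WRKY62, WRKY38 and WRKY30, and subgroup IIc held 3. These counts are descriptions, and differences between subgroups were not tested.

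**Figure D1:**
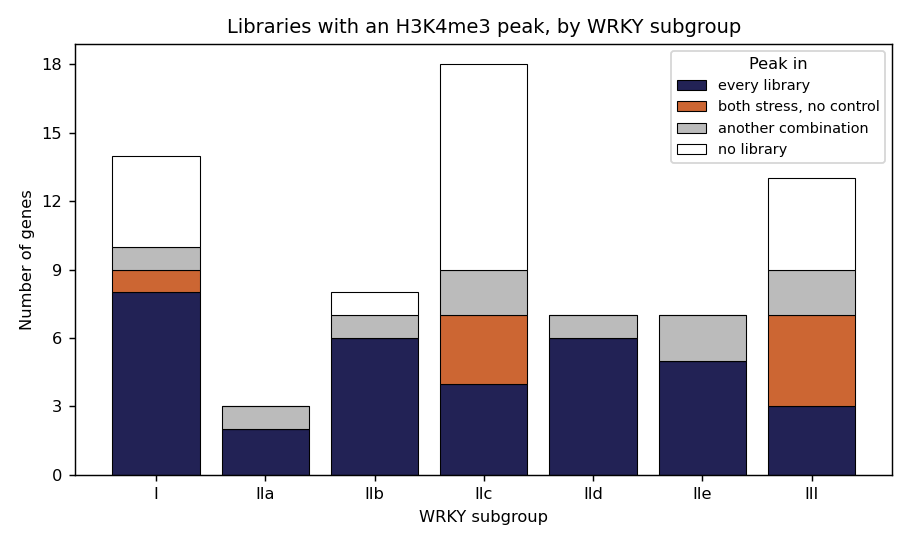
Number of WRKY genes (vertical axis) in each subgroup (horizontal axis), divided by the libraries that hold an H3K4me3 peak in the gene span. Subgroup IIc has 9 of 18 genes with no peak, while IId has 6 of 7 with a peak in every library; WRKY16, which belongs to no subgroup here, is left out.

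Level was read as the highest pileup among the peaks in the span, where the pileup is how many fragments cover a summit, scaled to 1000000 fragments of the library (FPM). Among the 35 genes with a peak in every library the mean level ranged from 3.50 to 27.7 FPM with a median of 11.4, against 13.4 over the 16597 genes of the same kind. WRKY17, WRKY15 and WRKY65 had the highest means. WRKY17 showed 31.2 and 25.95 in control and 26.5 and 27.1 in stress, WRKY15 showed 24.1 and 31.0, then 23.8 and 23.7, and WRKY65 showed 25.9 and 21.7, then 26.04 and 26.7. The ranges of these 3 neighbours in the order overlapped. At the other end stood WRKY42, a repressor of the phosphate exporter gene PHO1, with 3.22 and 3.28 in control and 4.01 and 3.50 in stress, followed by WRKY31 and WRKY50. Summits lay mostly just inside the gene, at a median of 258 to 298 bp downstream of the TSS in the 4 libraries.

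**Figure D2:**
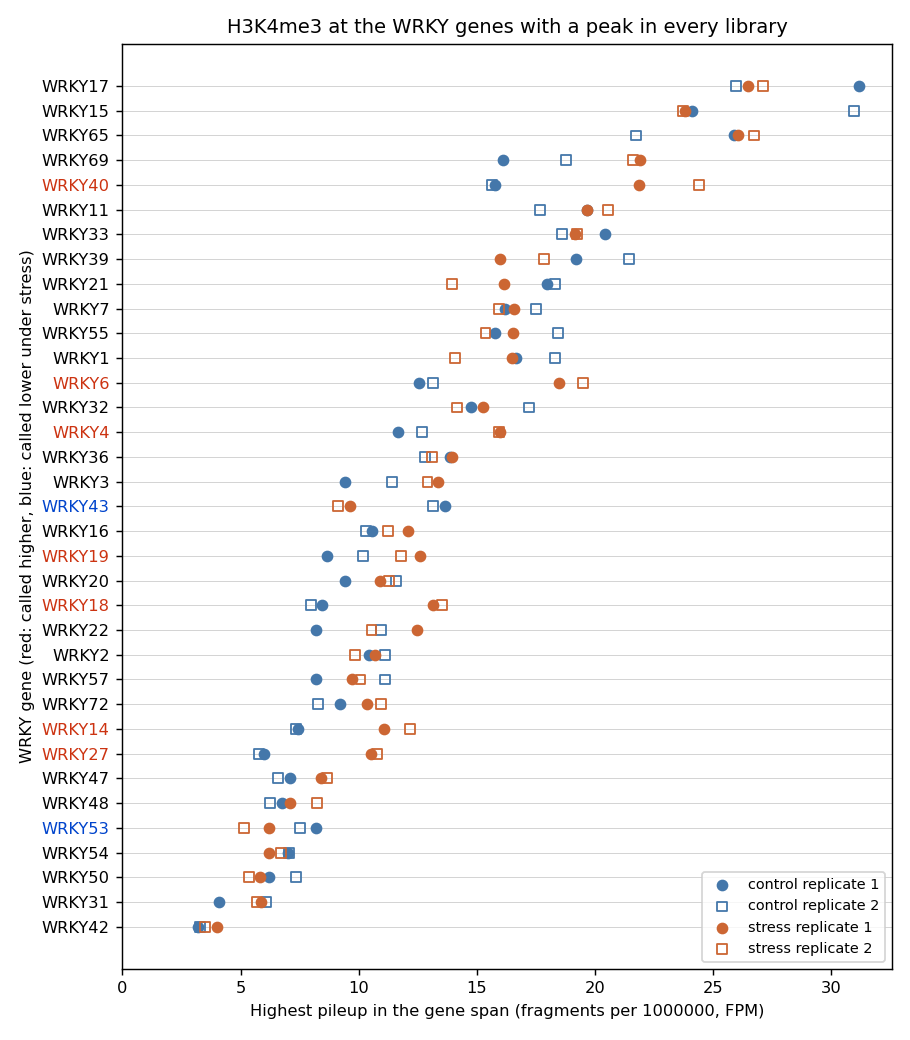
Highest pileup in the gene span in FPM (horizontal axis, from 0) for the 35 WRKY genes with a peak in every library (vertical axis, ordered by mean), with circles for replicate 1 and squares for replicate 2, blue for control and orange for stress. The stress points of the 7 genes named in red lie to the right of both control points, and those of the 2 genes named in blue, WRKY43 and WRKY53, to the left.

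Stress was compared with control on the log2 level by limma over all 16597 genes with a peak in every library, at an adjusted p under 0.05. Of the 35 WRKY genes, 7 were higher under stress (20%, background 8.38%) and 2 were lower (5.71%, background 11.1%). The median log2 change was 0.11 for the WRKY genes and -0.0022 for all genes. Both stress libraries lay above both control libraries in 16 WRKY genes and below them in 8, where the shares over all genes were 30.3% and 30.6%. The genes called higher were WRKY27, WRKY18, WRKY14, WRKY40, WRKY6, WRKY4 and WRKY19, of subgroups I, IIa, IIb and IIe. No gene of IIc, IId or III was called higher, but only 4 of 18, 6 of 7 and 3 of 13 of their genes were tested. At a background of 8.38% these numbers are too small to set the subgroups apart. The stress-only genes, 4 of them of III and 3 of IIc, could not be tested.

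WRKY27, which in Arabidopsis shapes symptoms of bacterial wilt, had the largest change. Its level was 5.99 and 5.78 FPM in control and 10.5 and 10.8 in stress, a log2 change of 0.85 ± 0.15 (SE, n = 2 and 2, limma adjusted p = 4.5e-05). The libraries of each condition differed by far less than the gap between conditions. WRKY27 was called higher under each of the 12 alternative settings that could be run for it, also by fold enrichment. It could not be tested with −log10 q of at least 10, where neither control peak passed. Its control peaks were weak, with a fold enrichment of 2.15 and 2.26, against 2.88 and 3.17 in stress.

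WRKY18 and WRKY40 belong with WRKY60 to subgroup IIa, whose proteins bind each other and act as repressors in immunity and abscisic acid signalling. WRKY18 measured 8.43 and 7.97 in control and 13.1 and 13.5 FPM in stress, a log2 change of 0.70 ± 0.13 (SE, limma adjusted p = 0.00019). WRKY40 measured 15.8 and 15.6, then 21.8 and 24.4, a change of 0.56 ± 0.12 (SE, limma adjusted p = 0.00087). Both genes thus had non-overlapping levels in the 2 conditions. WRKY60 had a peak in control replicate 1 at 12.5 and in the stress libraries at 13.3 and 11.6, and none in control replicate 2, so it entered no test. The summit of its peak lay nearer to the TSS of the neighbour AT2G25010 (MAIL1) than to its own.

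WRKY6, which acts in senescence and represses PHO1, rose from 12.5 and 13.1 to 18.5 and 19.5 FPM (log2 change 0.56 ± 0.12, SE, limma adjusted p = 0.00074). WRKY14 measured 7.43 and 7.35 in control and 11.1 and 12.2 in stress (0.65 ± 0.14, SE, limma adjusted p = 0.00073). WRKY4, a member of subgroup I with a part in resistance to necrotrophic fungi, measured 11.7 and 12.7, then 16.0 and 15.9. WRKY19, whose protein joins WRKY domains to an immune receptor and a kinase, measured 8.66 and 10.2, then 12.6 and 11.8. The log2 changes of WRKY4 and WRKY19 were 0.39 ± 0.12 and 0.38 ± 0.14 (SE, limma adjusted p = 0.020 and 0.044). Both calls were lost on leaving out control replicate 1, stress replicate 1 or stress replicate 2, with adjusted p up to 0.156 and 0.303 over their alternatives.

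Of the 2 genes called lower, WRKY53, a regulator of leaf senescence, measured 8.21 and 7.50 in control and 6.20 and 5.13 in stress (log2 change -0.48 ± 0.16, SE, limma adjusted p = 0.029). The call was lost without control replicate 1 and without stress replicate 2, with adjusted p up to 0.312 over its alternatives. WRKY43 measured 13.6 and 13.1 in control and 9.64 and 9.14 in stress (-0.51 ± 0.13, SE, limma adjusted p = 0.0045). Its peak, however, had its summit at -668 to -662 bp from the WRKY43 TSS in the 4 libraries, nearer to the TSS of KPHMT1 (AT2G46110), an enzyme gene of pantothenate synthesis. The signal of WRKY43 and that of KPHMT1 cannot be told apart here.

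The other 26 WRKY genes with a peak in every library did not pass the test, with log2 changes from -0.27 (WRKY50) to 0.34 (WRKY3), 14 of them above 0. Closest to the threshold were WRKY69, with 16.1 and 18.8 FPM in control and 21.9 and 21.6 in stress (0.33 ± 0.12, SE, limma adjusted p = 0.054), and WRKY3, a relative of WRKY4, with 9.43 and 11.4, then 13.3 and 12.9 (0.34 ± 0.13, SE, limma adjusted p = 0.064). In both genes the 2 conditions did not overlap.

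The fold enrichment, by which the authors divided a pileup by the local background of its own library, gave a different picture for several of these genes. Tested in the same way, it called 1 of the 35 WRKY genes higher, WRKY27, and 1 lower, WRKY43. Over all 16597 genes it called 1381 higher and 1049 lower. The local background of all 7 genes called higher by pileup was itself higher under stress, by a median of 0.44 on the log2 scale, against 0.16 over the 35 genes. At WRKY40 the background was 3.36 and 3.10 FPM in control and 5.30 and 5.73 in stress, and the fold enrichment was 4.58 and 4.84, then 4.09 and 4.23. At WRKY6 the background was 2.99 and 3.15, then 5.08 and 4.90, and the fold enrichment 4.08 and 4.01, then 3.60 and 3.95. The fold enrichment of these 2 genes thus changed in the opposite direction to the pileup, by -0.18 and -0.10 on the log2 scale. That background is taken from the library itself over 10000 bp around the peak and includes the peak. WRKY18 and WRKY14 kept their direction with 0.26 and 0.27.

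**Figure D3:**
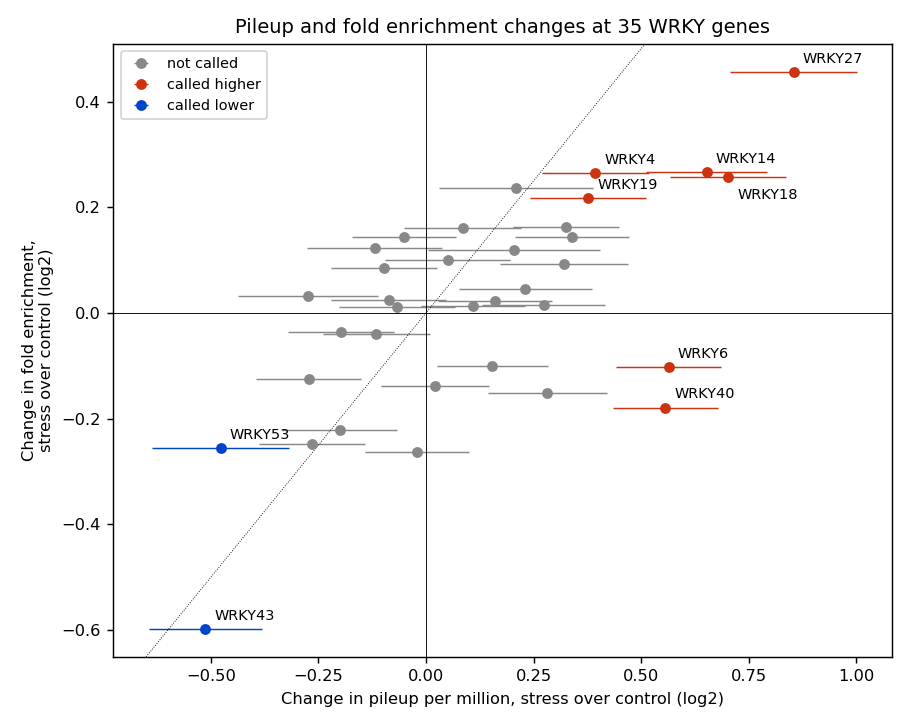
Log2 change from control to stress in pileup per 1000000 fragments (horizontal axis, bars are the limma SE, n = 2 and 2 libraries) against the log2 change in fold enrichment (vertical axis) for 35 WRKY genes; the dotted line marks equal changes. WRKY27 is at 0.85 and 0.46, while WRKY40 and WRKY6 lie right of 0 in pileup and below 0 in fold enrichment.

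The summed length of the peaks over a gene span was a further measure. It was greater in stress for all 35 WRKY genes by the fitted log2 change, with a median of 0.50, but 15269 of the 16597 genes showed the same sign and their median was 0.33. By limma 8 WRKY genes (22.9%, background 7.92%) had longer peaks under stress and 0 had shorter ones (background 0.247%). These were WRKY40, WRKY20, WRKY27, WRKY6, WRKY42, WRKY72, WRKY50 and WRKY32. Each overlapping peak was counted at its whole length, with any part outside the span. The summit of the highest peak at WRKY50 lay nearest to the TSS of AT5G26180 in every library. At WRKY32 it lay nearest to the TSS of AT4G30930 in all libraries but stress replicate 1. The WRKY32 call was lost when the summit had to lie in the span (limma adjusted p = 0.0502). WRKY40 had 840 and 696 bp of peak in control and 1905 and 1758 bp in stress, a log2 change of 1.26 ± 0.13 (SE, limma adjusted p = 0.032). WRKY20 went from 407 and 336 bp to 837 and 910 bp (1.24 ± 0.16, SE), and WRKY27 from 641 and 592 bp to 1240 and 1258 bp (1.02 ± 0.10, SE). WRKY6 had 1523 and 1621 bp in control and 2816 bp in each stress library. No WRKY gene kept a call on leaving out control replicate 2, stress replicate 1 or stress replicate 2, where limma called 0 of all genes. The median peak length followed the order of depth over the 4 libraries, and the part of depth in these lengths cannot be told apart from that of stress.

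**Figure D4:**
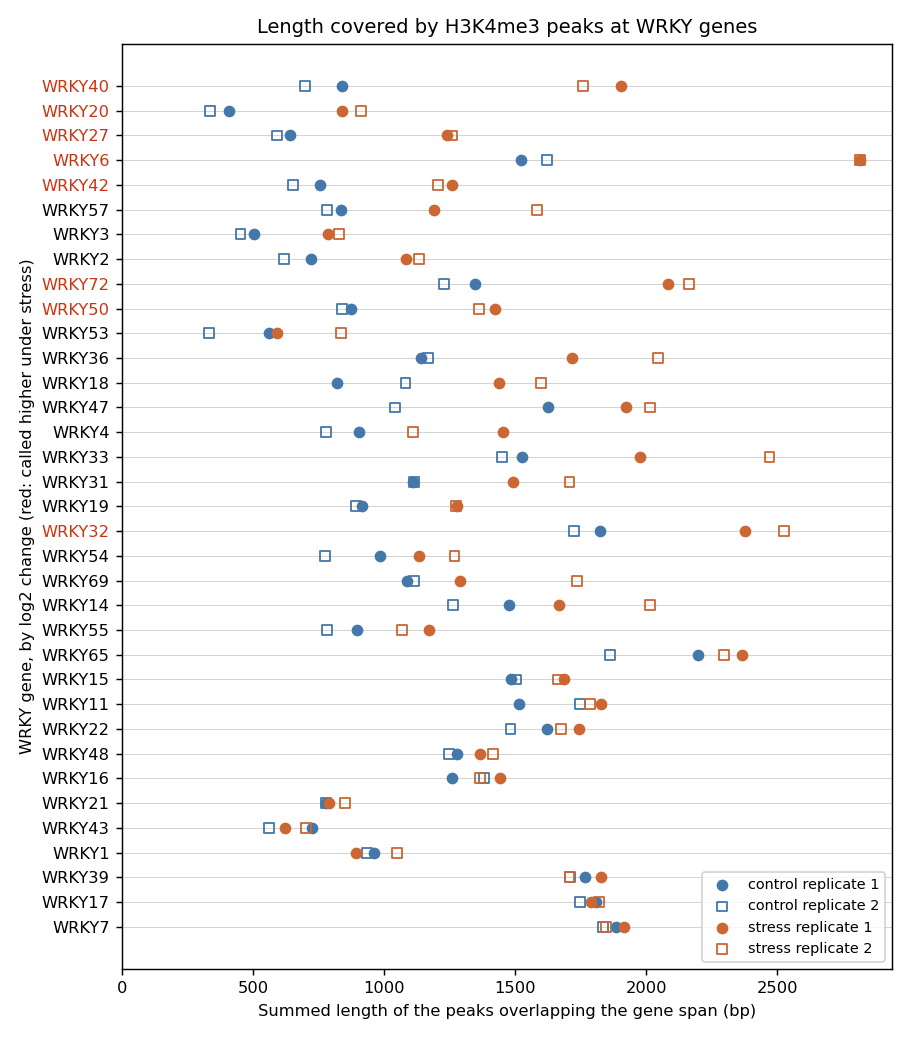
Summed length in bp of the peaks that overlap each gene span (horizontal axis, from 0) for the 35 WRKY genes (vertical axis, ordered by log2 change), with circles for replicate 1 and squares for replicate 2, blue for control and orange for stress. The 8 genes in red, led by WRKY40 with 696 to 840 bp in control and 1758 to 1905 bp in stress, were called longer.

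The 8 stress-only genes were WRKY26, WRKY45, WRKY46, WRKY23, WRKY51, WRKY38, WRKY30 and WRKY62. A missing peak is not a level of 0. For each, the lowest pileup that the caller would have accepted in a control library was therefore computed from the depth of that library and the local background of the stress libraries. WRKY38 and WRKY62 are related genes of subgroup III whose proteins limit basal defence. WRKY38 measured 6.32 and 5.25 FPM in stress, above the 3.44 and 3.85 that would have been called in control replicates 1 and 2, and its summits lay 258 and 194 bp downstream of its own TSS. WRKY62 measured 2.94 and 2.92, between the control limits of 2.70 and 3.06. WRKY30, which responds to oxidative stress, measured 3.63 and 3.89, under both control limits of 3.91 and 4.35. For WRKY30, and against control replicate 2 for WRKY62, an equal level in control would not have been detectable at this depth.

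WRKY23, an auxin-responsive gene of root growth, measured 7.64 and 6.22, and WRKY51, which acts with WRKY50 in jasmonate repression, measured 6.76 and 5.48. In both genes stress replicate 1 lay above the control limits (5.92 and 6.49 for WRKY23, 5.89 and 6.46 for WRKY51). Stress replicate 2 lay between the limits at WRKY23 and under both at WRKY51. A level equal to that of stress replicate 2 would not have been detectable in control replicate 2 for WRKY23. For WRKY51 it would not have been detectable in either control library. WRKY46, which acts in drought and brassinosteroid responses, measured 8.70 and 9.53 against limits of 7.64 and 8.30. Its summit lay 964 bp inside the gene in both stress libraries, nearer to the TSS of SDH8 (AT2G46390), a gene of mitochondrial succinate dehydrogenase.

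WRKY45 and WRKY26 were the clearest by level, yet their peaks lay nearest to the starts of neighbouring genes. WRKY45, an activator of phosphate uptake, measured 11.8 and 11.9 against limits of 4.78 and 5.28, but its summits lay at -1394 and -1248 bp from its TSS, nearest to the start of AT3G01980. When overlapping peaks of the 4 libraries were merged into regions, the region at WRKY45 held a peak in every library and was called higher under stress by limma. WRKY26, a heat-response gene of subgroup I, measured 18.2 and 15.9 against limits of 10.3 and 11.1, with summits at -1633 and -1467 bp from its TSS, nearest to the start of AT5G07090. When the summit itself had to lie in the span, WRKY45 and WRKY26 left the list and 6 genes remained. Of the 4 genes that kept the pattern at equal depth, WRKY46, WRKY45, WRKY26 and WRKY38, WRKY38 was the one whose summits were nearest to its own TSS.

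**Figure D5:**
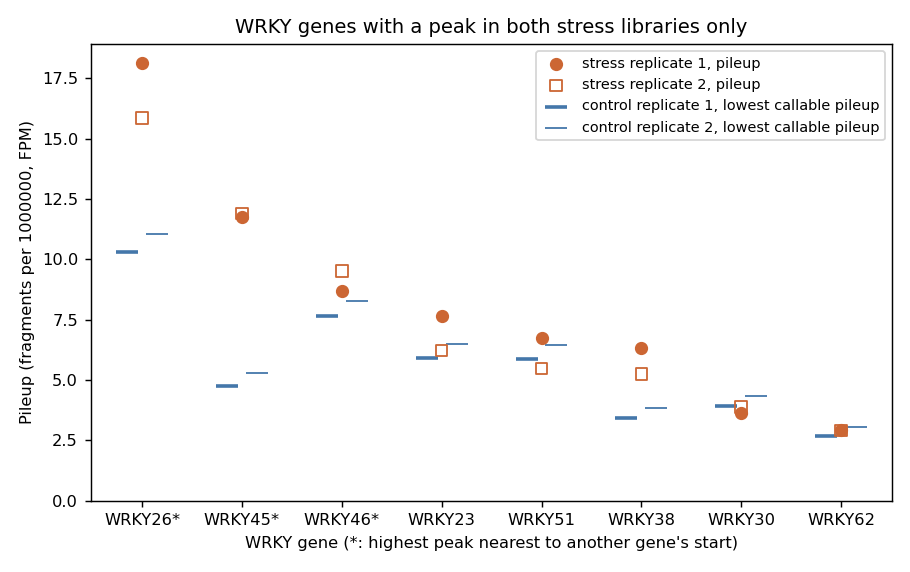
Pileup in FPM (vertical axis, from 0) of the 8 stress-only WRKY genes (horizontal axis), with circles for stress replicate 1 and squares for stress replicate 2; the bars are the lowest pileup that would have been called in each control library at the stress libraries' local background. WRKY26, WRKY45, WRKY46 and WRKY38 lie above both bars in both libraries, and the 3 genes with an asterisk have their peak nearer to another gene's start.

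The position of the peaks bears on the family as a whole. Of the 53 WRKY genes with a peak in any library, 43 had the summit of their highest peak nearest to their own TSS in each library with a peak, 3 in some and 7 in none. The 7 were WRKY60, WRKY55, WRKY43, WRKY46, WRKY45, WRKY26 and WRKY50.

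Several well-studied members had other patterns. WRKY33, the regulator of camalexin synthesis and of resistance to necrotrophic fungi, measured 20.4 and 18.6 in control and 19.2 and 19.2 FPM in stress, and its conditions overlapped (log2 change -0.02 ± 0.12, SE, limma adjusted p = 0.92). WRKY70, which balances salicylate and jasmonate responses, measured 9.10 and 7.50 in control, had no peak in stress replicate 1, where a pileup of 3.43 would have been called, and measured 4.04 in stress replicate 2. Its partner WRKY54 measured 6.99 and 7.03, then 6.20 and 6.73 (log2 change -0.12 ± 0.16, SE, limma adjusted p = 0.63). WRKY25, a heat-response relative of WRKY33, measured 7.77 in control replicate 1 and 9.20 and 9.57 in stress, with no peak in control replicate 2, where 7.16 would have been called. WRKY74 measured 2.66 and 3.91 in control, had no peak in stress replicate 1, where 1.33 would have been called, and measured 1.44 in stress replicate 2.

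Another 6 genes had a peak in some libraries. WRKY35 measured 5.44 FPM in control replicate 1 and 7.70 and 7.93 in stress, and WRKY59 measured 2.11 in control replicate 1 and 1.75 and 1.87 in stress. Neither had a peak in control replicate 2, the shallowest library, where 5.04 and 1.89 would have been called. Both stress values of WRKY59 lay under that limit. Its summits lay 2511 to 2737 bp downstream of its TSS, past the end of the gene of 2435 bp. The summit was nearest to the WRKY59 TSS in 2 of the 3 libraries with a peak, and otherwise to that of AT2G21890. WRKY61, WRKY63, WRKY68 and WRKY29 had a peak in stress replicate 2 alone, the deepest library, at 4.01, 1.52, 2.10 and 2.88 FPM. For WRKY61 and WRKY63 these levels lay under the limits of both control libraries, so equal levels there would not have been detectable. WRKY29, which acts in immune signalling, lay above the limits of 1.97 to 2.72 of the other 3 libraries.

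The study's text names WRKY11 and WRKY17, related genes of subgroup IId that restrain basal resistance. The paper reports more RNA of both genes under osmotic stress, in root hair cells (trichoblasts) and by qPCR in root tips. It also reports more accessible binding motifs and higher expression of their target genes. The values here are of a mark in bulk roots and not of RNA. WRKY11 measured 19.6 and 17.7 in control and 19.7 and 20.5 in stress, a log2 change of 0.11 ± 0.12 (SE, limma adjusted p = 0.56). WRKY17 had a log2 change of -0.09 ± 0.13 (SE, limma adjusted p = 0.69), with overlapping conditions. Of the 6 tested genes of subgroup IId, none was called higher (background 8.38%) or lower (background 11.1%), too few to set against these shares. Their changes ranged from -0.27 to 0.11. WRKY44, also known as TTG2, a regulator of trichomes and the seed coat, had no peak in any library.

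Genes that work with WRKY factors were read from lists. Of 11 genes of the MAP kinase module that acts upstream of WRKY33, 8 were tested, 0 were higher (background 8.38%) and 1, or 12.5%, was lower (background 11.1%), with a median log2 change of -0.12 against -0.0022 over all genes. The lower gene was MKK5, a kinase that activates MPK3 and MPK6, with 41.5 and 43.5 in control and 28.9 and 25.2 FPM in stress (log2 change -0.66, limma adjusted p = 0.00098). Of 7 genes of VQ proteins, which bind WRKY factors, 4 were tested, of which 1 was higher (background 8.38%) and 0 lower (background 11.1%), counts too small to set against the background. This was MKS1, a substrate of MPK4 that binds WRKY33, with 8.10 and 9.38, then 10.8 and 12.9 (0.43, limma adjusted p = 0.024). A list of 14 defence genes held camalexin and salicylate genes together with ACS2 and ACS6 of ethylene synthesis and the NADPH oxidase gene RBOHD. Of these 14, 7 were tested, ACS6 and RBOHD among them. None was called higher (background 8.38%) or lower (background 11.1%), and 7 genes are too few to set against these shares. ICS1, the main enzyme of salicylate synthesis, had a peak of 16.3 and 16.6 in the control libraries and none in the stress libraries. This pattern was held by 0.263% of all nuclear genes. The place of the ICS1 peak and the lowest pileup callable in stress were not read. Its missing peaks are therefore not a level of 0. The camalexin genes PAD3, CYP71A12 and CYP71A13 had no peak in any library.

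W-boxes were searched as TTGACC and TTGACT on both strands from 250 bp before to 50 bp after the TSS, in sequence read from TAIR10.1. At least 1 was found in 25 of 71 WRKY promoters (35.2%) and in 32.4% of 27443 protein-coding promoters, and 2 or more in 12 (16.9%) against 7.70%. A W-box was found in 1 of the 7 genes called higher, WRKY19, in 1 of the 2 called lower, WRKY53, in 4 of the 8 stress-only genes, and in 7 of the 18 with no peak. The promoters of 4 genes are shown because they stand for these results, with W-boxes on either strand in capitals. WRKY27 (chr5:21410519-21410818, plus strand), the gene with the largest rise, and WRKY38 (chr5:7496941-7497240, minus strand), stress-only also at equal depth with summits nearest to its own TSS, have no match. WRKY30 (chr5:8154661-8154960, minus strand) has the most of the family, 3, starting at -124, -69 and -61 bp from the TSS, and WRKY53 (chr4:12393933-12394232, minus strand), called lower, has 2, at -219 and -71 bp. A match is a description of the letters and says nothing of binding.
WRKY27: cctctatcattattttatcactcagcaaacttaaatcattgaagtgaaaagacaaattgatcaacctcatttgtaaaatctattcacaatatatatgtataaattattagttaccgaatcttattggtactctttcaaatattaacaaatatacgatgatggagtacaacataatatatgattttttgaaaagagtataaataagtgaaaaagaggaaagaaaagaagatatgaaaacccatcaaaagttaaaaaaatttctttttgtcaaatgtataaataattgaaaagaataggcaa
WRKY38: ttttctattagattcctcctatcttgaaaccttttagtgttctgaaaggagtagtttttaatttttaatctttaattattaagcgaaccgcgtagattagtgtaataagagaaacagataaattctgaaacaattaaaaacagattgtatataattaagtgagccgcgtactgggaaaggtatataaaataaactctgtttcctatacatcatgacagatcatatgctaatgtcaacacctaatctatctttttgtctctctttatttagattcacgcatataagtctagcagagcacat
WRKY30: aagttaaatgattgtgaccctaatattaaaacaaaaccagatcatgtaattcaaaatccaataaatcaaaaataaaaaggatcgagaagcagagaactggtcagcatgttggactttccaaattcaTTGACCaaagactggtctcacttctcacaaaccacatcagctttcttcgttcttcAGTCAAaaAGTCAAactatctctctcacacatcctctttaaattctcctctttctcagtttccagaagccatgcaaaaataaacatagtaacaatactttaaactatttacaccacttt
WRKY53: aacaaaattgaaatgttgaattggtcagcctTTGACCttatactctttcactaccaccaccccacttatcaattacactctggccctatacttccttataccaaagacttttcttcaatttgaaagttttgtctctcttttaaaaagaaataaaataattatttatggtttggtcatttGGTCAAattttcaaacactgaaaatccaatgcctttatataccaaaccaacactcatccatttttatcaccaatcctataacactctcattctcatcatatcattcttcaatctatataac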

How the data were processed

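H3K4me3 CUT&Tag peak tables of 2 control and 2 stress libraries were analysed. The labels name the mark as H3K4 methylation and TAIR10 as the build. The submitters' processing notes name fastp 0.19.7, Bowtie2 2.3.5.1, MACS2, ChIPseeker and DiffBind 2.10.0. Per the file headers the authors ran MACS 2.2.7.1 on each library separately, in paired mode and without a control library, with a p cutoff of 1e-05, a background window of 10000 bp and 2700000000 bp as effective genome size. The authors deposited per peak a pileup, which is an unscaled signal in fragments, a fold enrichment, which is a ratio to local background, and −log10 values of p and q. The deposited −log10 p-values were recomputed from pileup and background for 56845 peaks, with differences of at most 0.00119.

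Genes came from TAIR10.1, and no peak lay beyond an end of its chromosomes 1 to 5. Log2 of the highest pileup per 1000000 header fragments, and of summed peak length, was modelled in limma 3.58.1 under R 4.3.3 (lmFit, eBayes with a trend). Benjamini-Hochberg adjustment was over all genes tested. The paper reports a significant rise of H3K4me3 under osmotic stress, but its text names no test for these libraries, so limma was chosen. No DiffBind result was used here. The scripts were tested on simulated data. Scaling to a total cannot show a genome-wide change. Tables were made in Python 3.11.15 (pandas 2.3.3, scipy 1.17.1, pysam 0.24.0).

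Members and lists were chosen with earlier results of these data known. Genes named were those called, those with a peak in 1 condition, WRKY11, WRKY17, WRKY44 and WRKY45, well-studied members, the 3 highest and 3 lowest levels, called genes of the other lists, and the largest width changes. Genes with no peak or with a peak in some libraries, ICS1, the camalexin genes, WRKY69 and WRKY3 were named after their values were seen. Of 39 symbols of VQ genes, 32 found no gene in the annotation. Counts of protein domains were not run.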

Additional observations from a re-analysis of the deposited data

How the results depend on the processing

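By pileup, 7 WRKY genes were higher and 2 lower. The number higher was 1 by fold enrichment, and under the other full-data settings 6 to 10. Over all genes, fold enrichment called 1381 of 16597 higher, and those other settings 1117 to 1523 of 11925 to 19978 tested. With missing values set to the lowest pileup 10 WRKY genes were higher, but only 4 of the 7 were among them. WRKY4, WRKY14 and WRKY19 were lost. The genes added there, WRKY23, WRKY26, WRKY38, WRKY45, WRKY46 and WRKY51, were stress-only. Their control values were filled in, so these calls are no further evidence of a rise. The number lower was 1 by fold enrichment, 1 with −log10 q of at least 10 and 4 after division of each library by its median. It was 0 with a peak required in at least 2 libraries and missing values set to the lowest pileup. Over all genes, pileup called 1850 of 16597 lower and fold enrichment 1049 of 16597. With that minimum q it was 1741 of 14887, after division by the median 3015 of 16597, and with missing values filled 467 of 19978. The median log2 change of 0.11 became 0.02435 by fold enrichment and 0.2082 with missing values filled. Leaving out 1 library each gave 5 to 10 genes higher, 1 to 5 lower and a median of 0.066 to 0.144. By fold enrichment WRKY6 changed by -0.1013 and WRKY40 by -0.1787, neither past the threshold. The fold enrichment divides by a background that was higher in both stress libraries at these genes, and the cause was not tested.

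The count of genes with longer peaks was 0 to 12 on leaving out 1 library, and 8 with all. Same-numbered libraries shared only a number (correlation of their deviations -0.0025), and with the replicate block the signal calls were 7 higher and 2 lower, as without it, and the width calls 0, of 16597 genes. The stress-only count was 8 (11.3%, all genes 4.47%), but 4 at equal depth (5.63%, all genes 2.91%). It was 3 with a minimum fold enrichment of 4 (4.23%, all genes 2.65%) and 7 with −log10 q of at least 10 (9.86%, all genes 6.07%). On leaving out 1 library it was 8 to 12. The control-only count of 0 (all genes 0.263%) became 1 with −log10 q of at least 10 (1.41%, all genes 0.203%). It became 1 at equal depth (1.41%, all genes 0.614%) and 2 with a minimum fold enrichment of 4 (2.82%, all genes 1.61%). On leaving out 1 library it was 0 to 2. For single genes named, 203 of the signal comparisons kept their direction and side of the threshold, 18 kept the direction and lost the call, and 2 turned from a call (WRKY6 and WRKY40, above). Another 7 turned in sign with no call on either side, by fold enrichment at WRKY17, WRKY50, WRKY54 and WRKY65 and without control replicate 1 at WRKY17, WRKY31 and WRKY33. With 2 libraries a group and unequal depth, small changes and weak peaks were beyond detection.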
